A study of Mus musculus with 6 samples.

Results

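The basic helix-loop-helix (bHLH) genes described here are Tcf3, Tcf12 and Tcf4, which encode the E proteins, and Tal1, Tal2, Lyl1, Ascl2, Bhlhe40 and Bhlhe41. They were chosen by name. Every probe set whose annotated gene symbol was exactly 1 of these 9 was used, which gave 24 of the 45037 probe sets tested, and 9 of 18193 named genes. RNA was measured on 6 Affymetrix arrays of mouse CD4 T cells. In 3 samples the cells carried the retrovirus pMIT-E47-ER and in 3 control samples pMIT-bHLH-ER. ER stands for the estrogen receptor's hormone-binding part, which holds a fused protein out of the nucleus until tamoxifen is given.

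Each of 3 independent experiments gave 1 E47 and 1 control sample. The C57BL/6 mice were 7, 8 and 9 weeks old in experiments 1, 2 and 3, with 3, 3 and 4 mice pooled per sample. All samples started as lymph node cells purified as CD4+CD25-. They were stimulated on plates coated with anti-CD3 (2 µg/ml) and anti-CD28 (1 µg/ml) for 2 days with TGF-β1 at 5 ng/ml and IL-2 at 200 U/ml, and virus was added on day 1. In both groups the transduced CD4+Thy1.1+ cells were sorted, then given 1 µM tamoxifen for 6 hours on the same antibodies with IL-2. The labels name the control construct without describing its contents. No sample was without tamoxifen.

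E proteins bind DNA as dimers at E-boxes, the sequence CANNTG, through a basic region next to the helix-loop-helix. E47 is a splice product of Tcf3. Id proteins have a helix-loop-helix but no basic region, so that a dimer with an Id protein does not bind DNA. Tal1, Tal2, Lyl1 and Ascl2 are tissue-restricted factors that bind DNA as dimers with E proteins. Bhlhe40 and Bhlhe41 are repressors that bind E-boxes of the form CACGTG. In the T lineage E proteins are known for guiding thymocyte development.

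The 7 measured T cell markers had summed intensities of 19508 to 22610 in E47 and 18539 to 22018 in control arrays. Foxp3, the lineage factor of regulatory T cells, averaged 6.75 ± 0.95 in E47 and 6.96 ± 1.04 in control on the log2 scale (SD, n = 3 each) and was highest in experiment 2 in both groups. These SDs include the difference between experiments, so they do not measure the spread of the paired difference. The summed myeloid and dendritic markers did not overlap between the groups, at 208 to 227 in E47 and 237 to 247 in control, although 0 of 7 passed the test in limma and 1 of 7 had an unadjusted p under 0.05. In limma 0 of 5 CD8 and NK, 0 of 6 B cell, 0 of 6 erythroid and progenitor and 0 of 6 endothelial and stromal markers passed (unadjusted p under 0.05 in 2, 0, 0 and 0), and their summed levels overlapped between the groups. The 7 regulatory T cell markers did not overlap in sum either, at 11956 to 13679 in E47 and 14033 to 15407 in control. Bright genes weigh most in such a sum. Tnfrsf18 alone read 4867 to 6144 in E47 and 6006 to 7417 in control, where its groups overlapped. Read singly, 1 of the 7 regulatory T cell markers did not overlap between the groups. Of the 7, 6 had a negative log2 difference, with a median of -0.22. Of the 7 T cell and 7 regulatory T cell markers 0 passed in limma (3 and 2 at an unadjusted p under 0.05). Of all single probe sets, 11.2% did not overlap between the groups and 9.06% had an unadjusted limma p under 0.05. No such share was computed for sums of lists. No marker was at 0, since the lowest intensity in the file was 4.26. The part of these markers in the results was not tested.

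Of the 24 probe sets, 1 changed, a probe set of Tal2 that was lower in E47 cells. The share of all probe sets that passed at an adjusted p under 0.05 was 0.271%, with 0.238% higher and 0.0333% lower in E47. The E protein genes, Lyl1, Tal1, Ascl2 and both Bhlhe genes gave no probe set past the threshold. Of the 24 log2 differences, 11 were positive and 13 negative, with a median of -0.02 beside a median of -0.02 over all probe sets. At an unadjusted p under 0.05 there were 2 probe sets, 1 of Tal2 and 1 of Tcf4, both lower, against 9.06% of all probe sets. The direction was the same in all 3 experiments for 8 of 24, against 31.4% of all probe sets. For 22 of the 24 the 95% interval of the log2 difference, not adjusted for the number of tests, lay within 1 on either side of 0, so that it held no 2-fold change. The 2 exceptions were the Tal2 probe set and a dim Tcf12 probe set. In RNA pooled over a sorted population, fewer cells of a type and less RNA per cell cannot be told apart.

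**Figure D1:**
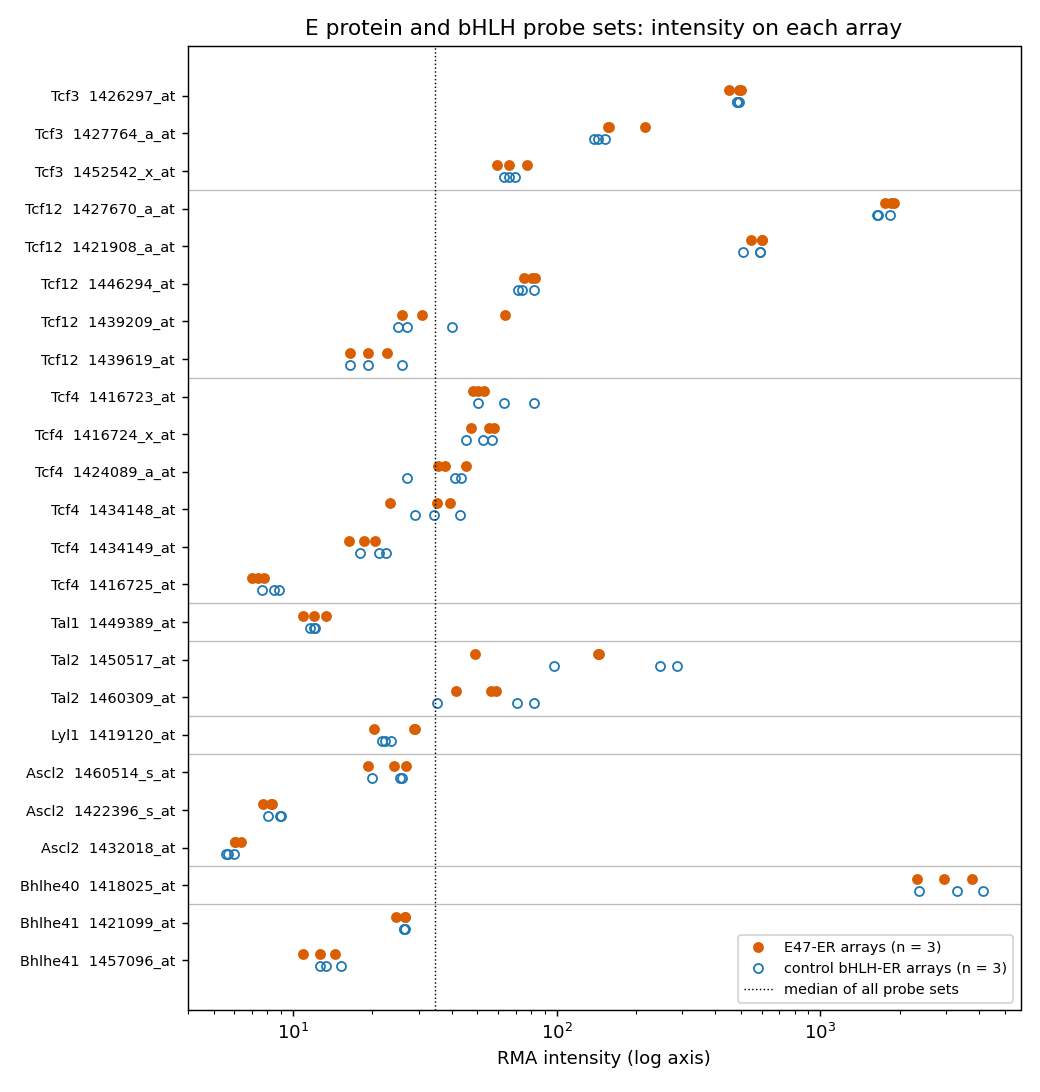
RMA intensity on a log axis of each of the 24 probe sets on each array, with filled points for the 3 E47 arrays above open points for the 3 control arrays in every row, and a dotted line at the median of all probe sets. Bhlhe40 lies between 2328 and 4126 and the brightest Tcf12 probe set between 1639 and 1908, while Tal1, Lyl1, Ascl2 and Bhlhe41 lie left of the dotted line.

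Tcf3 is the gene from which E47 is made, so its 3 probe sets were read first. Probe set 1426297_at had intensities of 494, 449 and 501 in E47 experiments 1 to 3 and 482, 492 and 482 in control. The groups overlapped, and the log2 difference of -0.01 (SE 0.09, 95% interval -0.23 to 0.20, limma adjusted p = 0.973) was as small as the spread between arrays. Probe set 1427764_a_at had 157, 158 and 217 in E47 and 152, 138 and 143 in control. Here every E47 array was above every control array, with a log2 difference of 0.28 (SE 0.13, limma adjusted p = 0.592), most of it from experiment 3. Groups that do not overlap were found for 2 of the 24 probe sets, both higher in E47, and for 11.2% of all probe sets (4.57% higher and 6.65% lower in E47). Probe set 1452542_x_at had 66.1, 59.4 and 77.2 in E47 and 63.3, 69.4 and 65.9 in control, and its log2 difference was 0.02. No Tcf3 probe set thus passed the threshold between cells with the E47-ER construct and cells with the control construct. Which part of Tcf3 the construct carries, from which species, and where the probes lie relative to it were not analysed here. A probe set outside the cloned part, or within a part that both constructs share, checks nothing about the labels. The control construct is named bHLH-ER, and whether it carries a part of Tcf3 was not known here.

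Thy1 and Esr1, mouse genes related to other parts of the constructs, were read alongside. Their readings were not separated into the cells' own transcript and that of a construct. Thy1, whose Thy1.1 form marked transduced cells for sorting, had 6773, 8391 and 5936 in E47 and 4233, 4678 and 3076 in control. It was higher in E47 in each experiment, with a log2 difference of 0.82 (SE 0.09, limma adjusted p = 0.0498), just past the threshold. The adjusted p was 0.428 without the pairing, 0.372 without experiment 2 and 0.435 without experiment 3. Esr1, the mouse estrogen receptor gene, had a log2 difference of 0.21 (SE 0.10, limma adjusted p = 0.601) in its brightest probe set. Both constructs carry an ER domain, whose species was not known here.

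Tcf12 encodes HEB, the E protein that pairs with E47 in developing T cells. Its brightest probe set, 1427670_a_at, had 1765, 1908 and 1846 in E47 experiments 1 to 3 and 1661, 1835 and 1639 in control. The E47 array was the higher in each experiment, but the groups overlapped, and the log2 difference of 0.10 (SE 0.08, 95% interval -0.10 to 0.31) did not pass (limma adjusted p = 0.734). Probe set 1421908_a_at had 599.6, 599.6 and 544 in E47 and 511, 588 and 589 in control, a log2 difference of 0.05. Both bright Tcf12 probe sets thus gave narrow intervals around 0. Among the other 3, the widest spread was in 1439209_at, where E47 experiment 2 read 63.5 against 27.1 in its control, while experiment 1 read 26.0 in E47 against 40.1 in control. That probe set had a log2 difference of 0.30 with an interval of -0.50 to 1.11, and its sign turned without experiment 2. Probe set 1446294_at had 82.7, 74.9 and 81.0 in E47 and 81.8, 71.6 and 74.1 in control, and 1439619_at had 16.4, 22.8 and 19.3 in E47 and 26.0, 16.5 and 19.3 in control. Their log2 differences were 0.07 and -0.07, and both groups overlapped in each.

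Tcf4 encodes E2-2, the E protein needed for plasmacytoid dendritic cells. Its 6 probe sets were dim or of middle brightness, between 6.98 and 81.8 over all arrays. In 1416723_at the intensities were 50.4, 48.1 and 53.2 in E47 and 81.8, 50.4 and 63.2 in control. E47 was lower in each experiment, with the gap widest in experiment 1, but the groups overlapped slightly. The log2 difference was -0.34 (SE 0.14, unadjusted p = 0.0487, limma adjusted p = 0.549). Probe set 1416724_x_at had 55.4, 47.5 and 57.9 in E47 and 52.8, 45.3 and 56.8 in control, so that each pair was almost level (log2 difference 0.05). Probe set 1434148_at had 23.4, 35.3 and 39.3 in E47 and 42.9, 29.0 and 34.2 in control, lower in E47 in experiment 1 and higher in the others. Probe set 1424089_a_at had 37.6, 35.5 and 45.5 in E47 and 41.1, 27.0 and 43.4 in control, and 1434149_at had 16.35, 20.46 and 18.56 in E47 and 22.57, 18 and 21.19 in control, with log2 differences of 0.11 and -0.16. The dimmest, 1416725_at, read between 6.98 and 7.75 in E47 and between 7.63 and 8.88 in control (log2 difference -0.18). In these 3 the groups overlapped. All 5 other probe sets had log2 differences between -0.18 and 0.11, and 2 of them were positive. The Tcf4 probe sets therefore did not share a direction.

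The TAL group differed in brightness. Tal2, a factor first known from its activation in T cell leukaemia, had 145, 49.1 and 143 in E47 and 247, 97.4 and 286 in control with probe set 1450517_at. E47 was lower in every experiment, with log2 differences of -0.775, -0.988 and -0.999, while the groups overlapped because both arrays of experiment 2 were low. Tal2 fell to 0.528 of the control level with experiments paired (log2 difference -0.92, SE 0.09, 95% interval -1.14 to -0.70, limma adjusted p = 0.0306). In the unpaired fit it was far from the threshold (adjusted p = 0.858, SE 0.52). Without experiment 2 the adjusted p was 0.271 and without experiment 3 it was 0.364, at log2 differences of -0.89 and -0.88. Without experiment 1 the call held (adjusted p = 0.0144).

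The second Tal2 probe set, 1460309_at, had 56.6, 41.4 and 58.7 in E47 and 70.5, 35.1 and 81.9 in control. E47 was lower in experiments 1 and 3 and higher in experiment 2. Its log2 difference of -0.19 (SE 0.15, 95% interval -0.56 to 0.19) did not pass (limma adjusted p = 0.746). The brighter probe set showed the more negative difference in each experiment, and its log2 difference minus that of the dimmer one was -0.46, -1.23 and -0.52. With each gene read through its brightest probe set alone, Tal2 passed (limma adjusted p = 0.00789). In that fit 1.14% of genes passed, 0.781% higher and 0.363% lower in E47. The fit used the brighter Tal2 probe set again, with the same intensities and the same log2 difference. The pass is therefore not a further measurement of Tal2, and it leaves the result of the dimmer probe set as it was.

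Tal2 lies on chromosome 4 at 53779701 to 53788712 in GRCm38.p6, and its promoter window from RefSeq, 250 bases before to 50 after the start on the plus strand (chr4:53779451-53779750), is shown because it is the gene that was called. The window of Bhlhe41, on the minus strand of chromosome 6 (chr6:145865371-145865670), is shown beside it as the member window with the most E-boxes among those read here. The window of Tcf3 itself, on the minus strand of chromosome 10 (chr10:80433586-80433885), is the third. Capitals mark every CANNTG, which reads the same way on both strands.
Tal2: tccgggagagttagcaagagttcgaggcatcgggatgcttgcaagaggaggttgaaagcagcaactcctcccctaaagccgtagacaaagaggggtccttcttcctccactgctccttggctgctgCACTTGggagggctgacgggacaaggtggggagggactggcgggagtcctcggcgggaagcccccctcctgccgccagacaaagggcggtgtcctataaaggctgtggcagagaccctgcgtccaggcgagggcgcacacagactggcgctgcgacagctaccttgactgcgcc
Bhlhe41: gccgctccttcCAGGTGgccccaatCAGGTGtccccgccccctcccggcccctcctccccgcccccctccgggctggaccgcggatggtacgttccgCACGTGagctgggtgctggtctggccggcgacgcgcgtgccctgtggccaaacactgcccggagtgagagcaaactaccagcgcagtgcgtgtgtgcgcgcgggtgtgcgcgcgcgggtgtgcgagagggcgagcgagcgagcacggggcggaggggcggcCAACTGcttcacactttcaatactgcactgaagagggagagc
Tcf3: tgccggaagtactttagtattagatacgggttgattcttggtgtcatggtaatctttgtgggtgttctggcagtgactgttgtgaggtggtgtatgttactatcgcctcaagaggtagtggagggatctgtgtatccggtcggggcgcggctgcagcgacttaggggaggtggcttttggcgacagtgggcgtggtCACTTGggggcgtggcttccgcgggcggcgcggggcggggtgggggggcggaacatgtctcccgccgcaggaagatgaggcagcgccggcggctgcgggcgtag
The Tal2 window held 1 E-box, CACTTG, and so did the Tcf3 window. The Bhlhe41 window held 4, of which 2 were CAGGTG and 1 was CACGTG, the form that Bhlhe40 and Bhlhe41 themselves bind. Of all 32851 windows of this length, 72.3% held at least 1 CANNTG, with 1.39 on average. CAGGTG or its complement CACCTG, both forms of CANNTG, stood in 20.2% of windows, CAGCTG in 16.3% and CACGTG in 7.2%. Member windows on 1 chromosome were left out, a step not applied to the 32851 windows. Windows were read for 7 of the 9 genes, 10 windows in all. Of these, 9 held a CANNTG, 3 a CAGGTG or CACCTG, 1 a CAGCTG and 1 a CACGTG. The letters describe the windows and show no binding.

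Tal1, which forms complexes with E proteins and LMO2 in blood-forming cells, had 12.04, 10.91 and 13.30 in E47 and 11.57, 11.97 and 12.09 in control. The groups overlapped (log2 difference 0.02, 95% interval -0.21 to 0.25). Lyl1, its close relative, had 28.9, 29.0 and 20.3 in E47 and 22.4, 21.7 and 23.6 in control. It was higher in E47 in experiments 1 and 2 and lower in experiment 3 (log2 difference 0.19, SE 0.14, limma adjusted p = 0.727). Readings this low also came from genes of other tissues. The brightest probe sets of 14 such genes, among them those for albumin and insulin, read between 6.66 and 122 over the 6 arrays, and 0 of them passed in limma (0 at an unadjusted p under 0.05). No reading of Tcf4, Ascl2, Bhlhe41 or the second Tal2 probe set lay above this range. Nor did the experiment 2 readings of the called Tal2 probe set (49.1 in E47 and 97.4 in control). Whether any of these members, Tal1 or Lyl1 was detected above background was not tested, and a small change in a dim probe set may be missed.

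Ascl2 is a factor of follicular helper T cells and intestinal stem cells. Its brightest probe set, 1460514_s_at, had 26.8, 24.2 and 19.3 in E47 and 20.0, 25.5 and 25.9 in control. The 3 experiments pointed in different directions and the log2 difference was -0.03 (SE 0.17, 95% interval -0.44 to 0.38). The dimmest, 1432018_at, had 6.02, 6.02 and 6.36 in E47 and 5.69, 5.55 and 5.99 in control. Its groups did not overlap, yet the log2 difference was only 0.10 (SE 0.08, limma adjusted p = 0.752), at a level where only 1.13% of probe sets were dimmer. The remaining one, 1422396_s_at, had 8.27, 7.71 and 8.30 in E47 and 8.01, 8.93 and 8.99 in control (log2 difference -0.09). None of the 3 Ascl2 probe sets passed.

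Bhlhe40, which shapes cytokine production in activated T cells, read 2935, 2328 and 3744 in E47 and 3302, 2369 and 4126 in control. E47 was the lower in each experiment, with log2 differences of -0.17, -0.02 and -0.14, while the groups overlapped. The log2 difference of -0.11 (SE 0.08, 95% interval -0.32 to 0.10) did not pass (limma adjusted p = 0.723). Bhlhe41, its relative, had 26.7, 24.5 and 26.5 in E47 and 26.7, 26.3 and 26.4 in control with probe set 1421099_at. These arrays were nearly alike (log2 difference -0.03, 95% interval -0.23 to 0.17). Its dimmer probe set, 1457096_at, had 14.5, 10.9 and 12.6 in E47 and 13.3, 12.6 and 15.2 in control, with a log2 difference of -0.12 (SE 0.11).

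**Figure D2:**
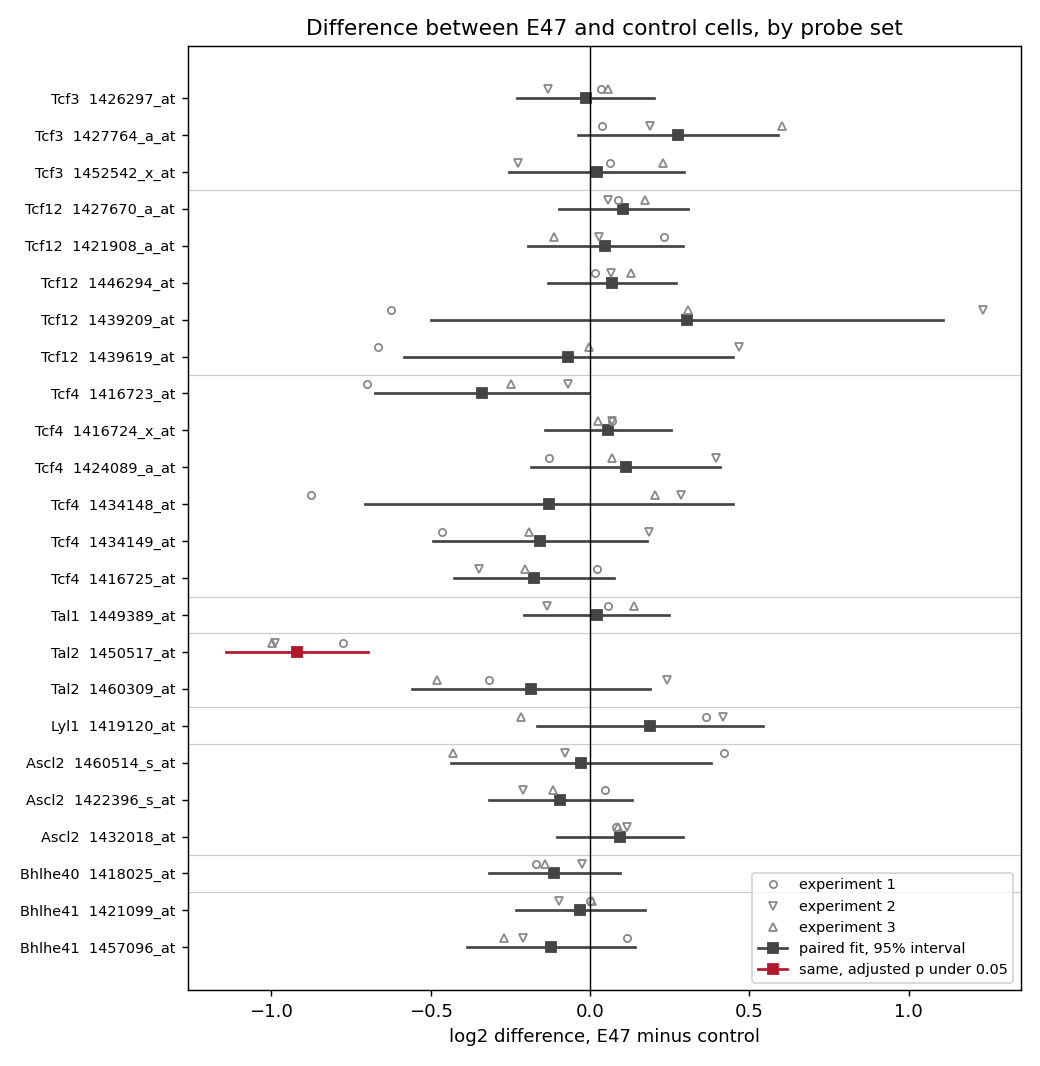
Log2 difference of E47 minus control for each of the 24 probe sets: squares and bars are the paired estimate and its 95% interval, and open symbols are the single experiments. The bar of Tal2 1450517_at, centred on -0.92, is the 1 bar past the threshold, and the bars of the bright Tcf12 and Bhlhe40 probe sets are short and cross 0.

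The experiments differed for some of these genes. Tal2 (1450517_at) had mean log2 levels of 7.56, 6.11 and 7.66 in experiments 1, 2 and 3, so that experiment 2 minus the mean of the others was -1.499. Its level differed between the 3 experiments (limma F test of the experiment, adjusted p = 0.0170), as it did for 0.604% of all probe sets. That test has no direction. The second Tal2 probe set was also lowest in experiment 2, with -0.80 for the same quantity (adjusted p = 0.197 in the same test). Bhlhe40 had mean log2 levels of 11.60, 11.20 and 11.94 in experiments 1, 2 and 3, with the same order in E47 and in control arrays (adjusted p = 0.0905 in the limma F test). It passed that test with a variance trend (adjusted p = 0.00163) and among bright probe sets alone (0.0448). No other member probe set passed. Of the 24, experiment 2 lay below the mean of the others in 18, against 50.2% of all probe sets, and several of the 24 share a gene.

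Some marker genes moved with experiment 2 as well, in cells that had been purified as CD4+CD25- and later sorted as CD4+Thy1.1+. The purity of the sorted cells was not tested here. The 5 CD8 and NK markers summed to 458, 872 and 491 in E47 experiments 1 to 3 and to 406, 813 and 352 in control, with 4 of 5 higher in experiment 2 than in the mean of the others. Klrd1, an NK receptor chain, was 1.58 higher there on the log2 scale. Its level differed between the 3 experiments (limma F test of the experiment, adjusted p = 0.0391), a test without direction. Gata1, a factor of red cell precursors that is also a TAL cofactor, was 1.35 higher in experiment 2 (adjusted p = 0.0169 in the same limma F test). The 6 erythroid and progenitor markers together summed to 243, 241 and 266 in E47 experiments 1 to 3 and to 239, 242 and 258 in control, with 2 of 6 higher in experiment 2. Foxp3, which TGF-β can induce in CD4 T cells themselves, was 1.71 higher in experiment 2 (adjusted p = 0.0146 in the limma F test of the experiment). The part of these genes' cells in the Tal2 and Bhlhe40 levels was not tested. Each experiment also had its own mouse age, and age and experiment cannot be told apart.

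**Figure D3:**
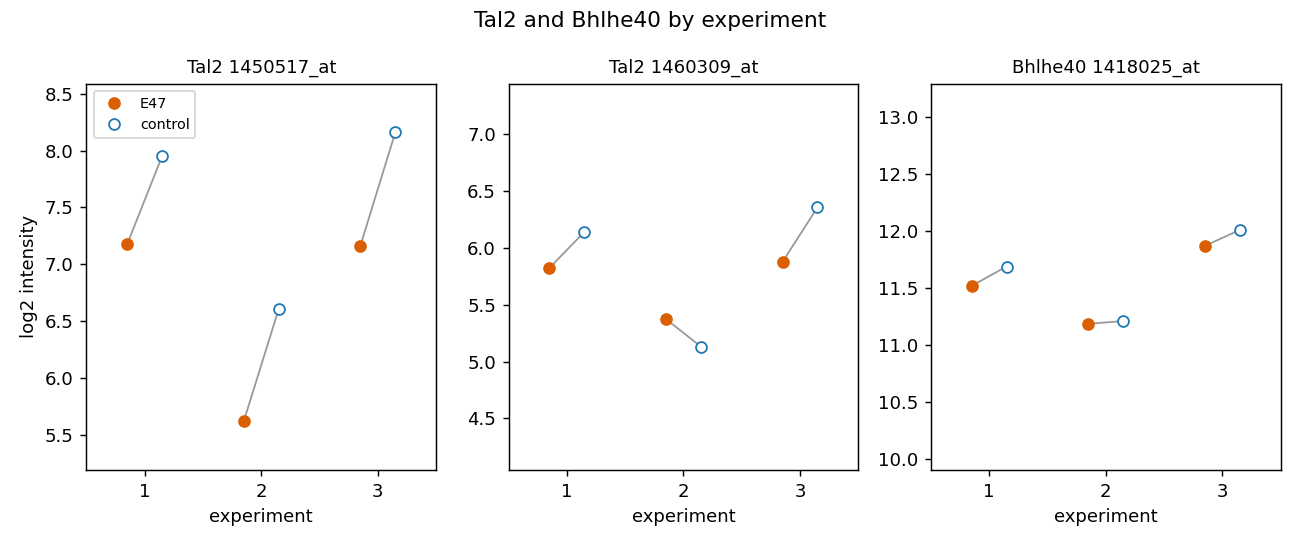
Log2 intensity of both Tal2 probe sets and of Bhlhe40 in each experiment, with E47 left of control and a line joining the pair, all panels spanning the same height. The lines of Tal2 1450517_at slope up to control in all 3 experiments, that of 1460309_at runs the other way in experiment 2, and all 3 probe sets are lowest in experiment 2.

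The 5 genes whose level ran most like Tal2 (1450517_at) over the 6 arrays were Cd83, a marker of activated lymphocytes and dendritic cells, then Tmem38b, Tlcd1, Kctd14 and Serpinb6a. Their Pearson r with Tal2 was 0.999, 0.998, 0.995, 0.994 and 0.993, among 3172 named probe sets with an SD of at least 0.3 on the log2 scale. Their log2 differences between E47 and control were -0.76, -0.36, -0.33, -0.75 and -0.26. These r values describe 6 arrays that share the low experiment 2, and no test was made of them.

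Of the 4 Id genes, whose proteins bind E proteins, 2 rose in E47 cells, where 0.238% of all probe sets rose. In limma 3 of the 4 had an unadjusted p under 0.05, against 9.06% of all probe sets. Id2 had 4326, 5641 and 4794 in E47 and 978, 712 and 691 in control in its brightest probe set, and all 3 of its probe sets rose (log2 differences 2.64, 2.84 and 2.70, limma adjusted p at most 0.00673). Id3 rose by 1.63 on the log2 scale (SE 0.13, limma adjusted p = 0.0161). Id1 had a log2 difference of 1.06 (SE 0.13) and missed the threshold over all probe sets (limma adjusted p = 0.0592), and Id4 was dim, with -0.06. Without experiment 3 the adjusted p of the Id2 probe sets was 0.115 to 0.171 and that of Id3 0.0844, and without experiment 2 that of Id3 was 0.122 and that of the brightest Id2 probe set just missed the threshold (0.05003).

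Other bHLH classes were read through the brightest probe set of each gene. Beside the counts of these classes, 0.271% of all probe sets passed in limma and 9.06% had an unadjusted p under 0.05. Of 22 bHLH-zipper genes 1 rose and 0 fell (3 at an unadjusted limma p under 0.05). The gene that rose was Mxd1, a Max partner that opposes Myc (log2 difference 1.22, SE 0.11, limma adjusted p = 0.0213). Its adjusted p was 0.583 without the pairing, 0.176 without experiment 2 and 0.233 without experiment 3. Mycn had 0.64 (limma adjusted p = 0.365) and Mitf 0.23, both higher in E47 in all 3 experiments. The median of the class was 0.03. Of 19 bHLH-PAS genes, a class of sensors for light-dark rhythm, oxygen and foreign compounds, 0 passed in limma (3 at an unadjusted p under 0.05), with Npas1 at -0.43 (adjusted p = 0.291) and Ahr, the aryl hydrocarbon receptor, at -0.41 (0.326) closest to it. Both were lower in E47 in all 3 experiments, and the class median was -0.02. Genes of these lists were named by lowest p in the paired fit, which favours a shared direction. Over all probe sets 31.4% had the same direction in all 3 experiments.

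Of 9 HES and HEY repressors, many of them targets of Notch, 0 passed in limma, against 0.271% of all probe sets. At an unadjusted limma p under 0.05 there was 1, against 9.06% of all probe sets. Hes1 had a log2 difference of 0.42 (SE 0.12, limma adjusted p = 0.427) and was higher in E47 in all 3 experiments. Hes7 had -0.28 and was higher in E47 in 1 of the 3. Of 39 tissue-restricted bHLH genes, such as those of muscle and nerve cells, 0 passed in limma (2 at an unadjusted p under 0.05), with a median log2 difference of -0.09 and a range of -0.42 to 0.14. Nhlh1 had -0.42 (limma adjusted p = 0.426) and Tcf15 -0.23 (0.526). The class was dim, with a median log2 level of 3.94 beside 5.12 over all probe sets.

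Among 24 cofactors of E proteins and of the TAL group, such as Lmo2, Ldb1 and Runx1, 0 passed in limma (2 at an unadjusted p under 0.05) and the median log2 difference was -0.01. Of all probe sets, 0.271% passed and 9.06% had an unadjusted limma p under 0.05. Gata3, a helper T cell factor, had -0.36 (SE 0.11, limma adjusted p = 0.443), lower in E47 in all 3 experiments, and Ssbp3, a partner of Ldb1, had 0.26. Of 10 circadian clock genes, a group known to be repressed in part by Bhlhe40 and Bhlhe41, 0 passed in limma (1 at an unadjusted p under 0.05) and the range was -0.23 to 0.22. Cry1 had 0.22 and Nr1d1 -0.22 (limma adjusted p = 0.541 and 0.637). Cry1 was higher in E47 in all 3 experiments and Nr1d1 in 1 of the 3.

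**Figure D4:**
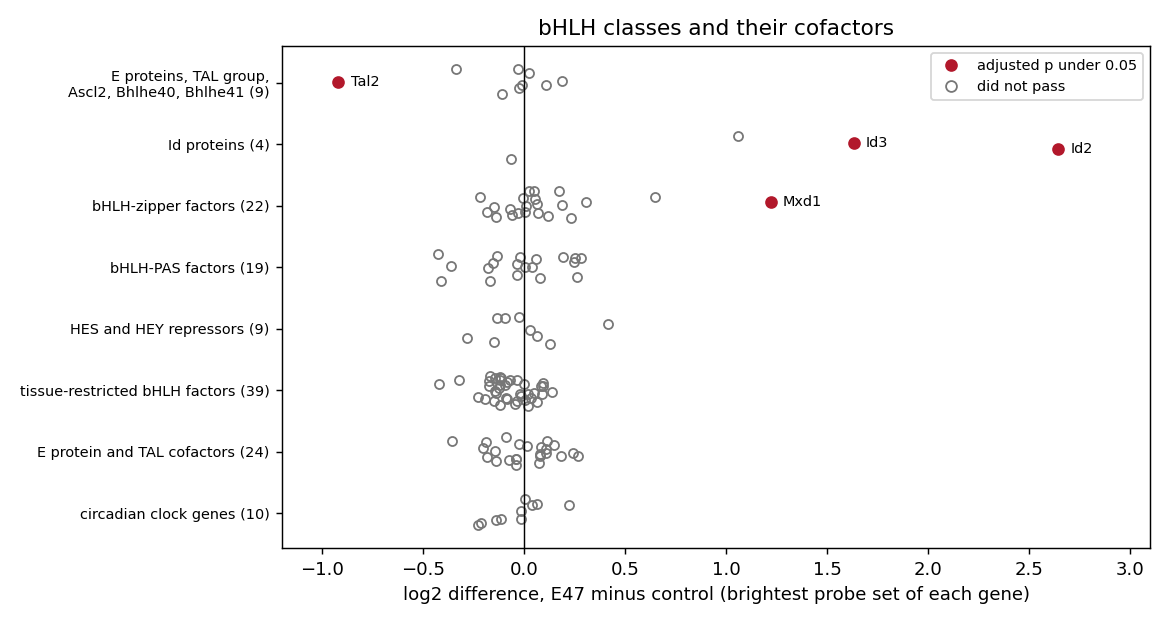
Log2 difference of E47 minus control of the brightest probe set of each gene, by class, with the number of genes measured in brackets and red points for those past the threshold. Tal2 at -0.92 is the red point left of 0, and Id2 at 2.64, Id3 at 1.63 and Mxd1 at 1.22 lie to its right.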

How the data were processed

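Biotin-labelled total RNA of 6 samples was measured on Affymetrix mouse arrays. The deposited table holds 1 intensity for each probe set on each array. RMA, which corrects background, equalises arrays and summarises probes, is the tool named per the submitters' processing notes, with no version. The intensities were on a linear scale, so log2 was taken with no pseudocount. Array medians lay between 34.3 and 35.4. Arrays carry no read depth, and 3 per group limit the precision. Probe brightness depends on the probe, so levels were not ranked between genes.

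Of 45101 probe sets, 64 Affymetrix controls were left out, and 34945 of the rest had 1 gene symbol, 932 several and 9160 none in the platform annotation used here. E47 was compared with control in limma 3.58.1 (R 4.3.3) by two-sided moderated tests of lmFit and eBayes on 45037 probe sets, with the experiment as a block, Benjamini-Hochberg adjustment and a threshold of 0.05. Differences between experiments were tested with the F test of the block. The pairing comes from the design text, which gives 3 independent experiments with 1 sample of each group. Deviations of same-numbered arrays from their group means correlated at 0.09, 0.52 and 0.31 across probe sets. Those of differently numbered arrays correlated at -0.43 to 0.22. The E47 array of experiment 1 correlated more with the control of experiment 3 (0.22) than with its own control (0.09). In simulated data of 45037 probe sets the paired fit recovered 46% of changes of 1 on the log2 scale and 80% of changes of 2, with 2 false calls, and the unpaired fit 59% and 91%, with 0. The noise there came from each probe set's residual spread in the paired fit, and 100 random probe sets were changed by each amount. These rates are averages over such probe sets and do not describe any 1 gene.

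All member probe sets are named. From 16 lists holding 196 symbols, 187 of them measured by their brightest probe set, up to 4 members past the threshold and 2 that did not pass were named by lowest p. The members and lists were chosen with earlier results of these data known. Foxp3, Klrd1 and, for its difference between experiments, Gata1 were named after their values were seen. Promoter windows came from RefSeq (GRCm38.p6) by symbol, with 1 chromosome left out for the members. Alternatives tried were no block or a random block, 1 value per gene, bright probe sets alone, other scalings, a variance trend and leaving out each experiment.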

Additional observations from a re-analysis of the deposited data

How the results depend on the processing

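The pairing decided the Tal2 call. With no replicate block 52 of all probe sets passed and 0 of the 24 member probe sets (0 also at an unadjusted p under 0.05), where the paired fit gave 122 and 1. A random replicate block also gave 0 member probe sets, with an adjusted p of 0.589 for Tal2. Over all features, 208 passed with 1 probe set per gene, 201 with the mean of a gene's probe sets and 558 with a variance trend. Leaving out 1 experiment gave 4 to 551 over all probe sets and 0 to 1 among members. The Tal2 call was kept in 8 of 12 alternatives, with limma adjusted p from 0.00350 to 0.0494. The highest of these came from the mean over the Tal2 probe sets, with a log2 difference of -0.55. Member probe sets that differed between experiments numbered 2 with a variance trend and 2 among bright probe sets, Bhlhe40 being the one added. Uncalled log2 differences changed sign in 15 of 246 member results. The mean over the Tcf3 probe sets, which was set against the brightest, 1426297_at, was 0.095. Probe set 1426297_at itself went to 0.0028 (median centring) and 1452542_x_at of Tcf3 to -0.0070 (quantile). Probe sets 1460514_s_at of Ascl2 and 1421099_at of Bhlhe41 went to 0.026 and 0.024 (cyclic loess). With 1 experiment left out the ranges were -0.049 to 0.046 and -0.082 to 0.14 for these Tcf3 probe sets, and -0.25 to 0.17 and -0.049 to 0.0027 for the Ascl2 and Bhlhe41 ones. They were -0.043 to 0.13 for 1421908_a_at, -0.16 to 0.77 for 1439209_at and -0.33 to 0.23 for 1439619_at of Tcf12. They were -0.030 to 0.23 for 1424089_a_at and -0.34 to 0.24 for 1434148_at of Tcf4, and -0.038 to 0.098 for Tal1. None of these values passed, and the cause was not tested. Dim probe sets limit what could be seen, since 12 of the 24 lay below the median level.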
